A study of Mus musculus with 7 samples.

Results

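BRG1 occupancy was examined across the loci of 5 genes of the AP-1 family, Fos, Fosb, Jun, Junb and Batf, in mouse CD4+ T helper cells. The members were the genes named by symbol and, on build mm9, a fixed stretch around each: chromosome 12, 86790001 to 86840000 for Fos; chromosome 7, 19870001 to 19910000 for Fosb; chromosome 4, 94690001 to 94740000 for Jun; chromosome 8, 87485001 to 87520000 for Junb; and chromosome 12, 87015001 to 87060000 for Batf. Together the stretches, called intervals here, hold 1100 of the 13194727 windows of 200 bp counted over the genome. They also hold 27 of the 26341 BRG1-enriched regions found in any of the 6 BRG1 libraries. An enriched region is a run of windows with more reads than the local background allows.

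The reads come from chromatin immunoprecipitation and sequencing (ChIP-seq) with J1, an antibody to BRG1, in 6 libraries, and from 1 input library of CD4+ T cell DNA that was not precipitated. All cells started as CD4+ CD62L+ naive cells of 95% purity taken from Balb/c mice, 4 to 6 weeks old, out of spleen and lymph nodes. The naive library was made from these cells directly. Th1 cultures contained 1 ng/ml IL-12 and an antibody blocking IL-4, and Th2 cultures contained 10 ng/ml IL-4 and an antibody blocking IFN-γ, both with 100 U/ml IL-2. Th17 cultures contained 100 ng/ml IL-6, 1 ng/ml TGF-β and 10 ng/ml each of IL-1β and IL-23. Resting Th1 and resting Th2 libraries came from such cultures without restimulation. Stimulated Th1, Th2 and Th17 cells received the phorbol ester PMA at 50 ng/ml and the calcium ionophore ionomycin at 500 ng/ml for 1.5 h, a drug pair that bypasses the antigen receptor. There was no resting Th17 library, so the Th17 library was compared with the other stimulated libraries only. With 1 library per group, no difference has a replicate check and no p-value is given. Each ratio compares 2 libraries, and its 95% interval (conditional exact, Clopper-Pearson) covers counting error only, since reads copied by PCR and carrying no molecular identifier are not independent molecules. The subset identity of each culture was not checked against marker genes, because these reads report protein on DNA and not expression.

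AP-1 is a family of dimeric transcription factors. Jun proteins pair with one another or with Fos proteins through a leucine zipper, and the dimers bind the site TGACTCA. In T cells the dimers are assembled when antigen receptor signals, or PMA and ionomycin in their place, activate kinases and calcium-dependent NFAT, with which AP-1 binds many cytokine genes jointly. Fos, Fosb, Jun and Junb are classic immediate early genes, transcribed within minutes of such a signal without new protein synthesis. Batf lacks the activation domain of Fos, pairs with Jun proteins, cooperates with IRF4 and is required for Th17 differentiation. BRG1 is an ATPase of the SWI/SNF (BAF) complex, which slides and evicts nucleosomes at promoters and enhancers.

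The promoters of Batf, Junb and Fos are shown first because these genes stand at the ends of the patterns described below: the interval with the largest difference after stimulation, the interval with the highest read density, and the interval with the smallest difference in Th2 cells. Each sequence is the 250 bases upstream of the RefSeq start on build GRCm38.p6, read 5′ to 3′ along the gene's strand, with CpG dinucleotides in capitals. The coordinates belong to that build and cannot be set against the mm9 positions of the reads.
Batf promoter, chr12:85686470-85686719, plus strand: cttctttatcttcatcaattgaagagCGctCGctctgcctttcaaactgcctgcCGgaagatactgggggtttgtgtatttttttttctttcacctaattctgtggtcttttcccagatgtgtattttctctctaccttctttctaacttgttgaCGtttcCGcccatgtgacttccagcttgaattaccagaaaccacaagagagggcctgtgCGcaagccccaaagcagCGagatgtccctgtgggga
Junb promoter, chr8:84978749-84978998, minus strand: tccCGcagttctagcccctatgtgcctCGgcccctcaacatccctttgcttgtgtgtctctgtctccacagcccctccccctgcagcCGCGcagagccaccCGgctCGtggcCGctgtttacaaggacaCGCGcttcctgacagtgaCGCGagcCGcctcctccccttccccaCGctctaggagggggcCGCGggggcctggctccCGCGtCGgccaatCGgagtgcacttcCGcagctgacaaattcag
Fos promoter, chr12:85473640-85473889, plus strand: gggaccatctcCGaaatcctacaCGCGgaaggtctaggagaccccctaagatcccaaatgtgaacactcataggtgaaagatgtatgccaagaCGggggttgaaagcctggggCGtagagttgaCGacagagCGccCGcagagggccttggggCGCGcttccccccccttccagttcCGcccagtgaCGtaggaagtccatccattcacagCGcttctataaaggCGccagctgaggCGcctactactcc

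The Batf promoter was the poorest in GC and CpG of the 5 promoters. It held 46.4% GC and 7 CpG dinucleotides, close to the medians of 52.4% and 6 over the 32536 distinct promoters in the RefSeq table. The other members lay above both medians: Junb had 66.4% GC and 20 CpG, and Fosb had 68.8% GC and 19 CpG. Jun had 61.2% GC with 15 CpG, and Fos had 58.4% GC with 15 CpG. Both strands were searched for the AP-1 site TGACTCA (in 4.45% of all these promoters), the cyclic AMP response element TGACGTCA (1.56%), the CArG box bound by serum response factor (1.48%), the STAT site TTCNNNGAA (7.04%) and TATAAA (12.3%). None of these motifs contains another. The single match among the 5 members was TATAAA in Fos, at bases 33 to 28 upstream of the start. A match of letters is a description and not a bound site, and a motif outside the 250 bases would not be seen.

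The distinct reads, 1 per start and strand, ranged from 1340208 in resting Th2 to 7892944 in stimulated Th17, with 3531867 in the input. The 3 unstimulated libraries were shallower (1340208 to 2071800 distinct reads) and more repetitive (28.5% to 41.4% repeated reads) than the 3 stimulated ones (3917492 to 7892944 and 10.2% to 11.8%), so stimulation cannot be told apart from depth and read duplication by these libraries alone. Levels are therefore given as reads per 1000000 distinct reads (RPM), and each activation ratio is set beside the same ratio elsewhere in the genome. Over all tested enriched regions the median ratio was 1.50 for stimulated over resting Th1 (0.58 on the log2 scale) and 1.26 for Th2 (0.33). In stretches of 10 kb without any enriched region the corresponding ratios were 0.846 and 0.923. Those medians set the scale against which the members are read. The intervals are longer than enriched regions, and 40 kb bins with an enriched region had smaller medians, 1.23 in Th1 and 1.12 in Th2. Dividing an interval ratio by the region median thus sets unlike lengths side by side.

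Junb had the highest read density of the 5 intervals in every BRG1 library, and Batf had the lowest in the unstimulated libraries and the second highest in the stimulated ones. Junb was also the densest interval in the input, so this ranking is of reads and not of enrichment over input. JunB is the Jun protein that is a weaker activator than c-Jun and supports Th2 and Th17 gene expression. Per kilobase, the Junb interval held 2.79 RPM in naive cells, 4.01 in Th1 and 4.56 in Th2 cells at rest, and 7.01, 6.12 and 4.90 in stimulated Th1, Th2 and Th17 cells, against 1.59 in the input. The Batf interval held 0.762, 0.688 and 1.11 RPM per kb in naive, resting Th1 and resting Th2, and 2.91, 2.86 and 2.89 in stimulated Th1, Th2 and Th17, with 0.761 in the input. Naive and resting Th1 thus lay near the input and resting Th2 above it, and the 3 stimulated values lay close to each other and higher still. The Fosb interval held 1.94, 1.59 and 1.88 RPM per kb unstimulated and 2.86, 2.54 and 2.53 stimulated, in the same order of libraries, with 1.17 in the input. In stimulated Th1 the Fosb and Batf densities, 2.86 and 2.91, lay within counting error of each other. The Jun interval held 1.24, 1.36 and 1.55 unstimulated and 1.85, 1.81 and 1.56 stimulated, with 0.759 in the input. For Fos the values were 1.94, 1.47 and 2.07 unstimulated and 2.14, 2.05 and 2.05 stimulated, with 0.985 in the input. The Fos values of the stimulated libraries overlapped that of resting Th2 and lay above that of naive, and the Jun value of stimulated Th17 lay just above that of resting Th2. All 3 stimulated libraries lay above all 3 unstimulated ones in 4 of the 5 intervals, the exception being Fos, and below them in 0. Of all bins of 40 kb in the genome, 11.2% had all stimulated libraries above and 36.6% below, and of the bins that hold an enriched region 35.2% had them above.

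**Figure D1:**
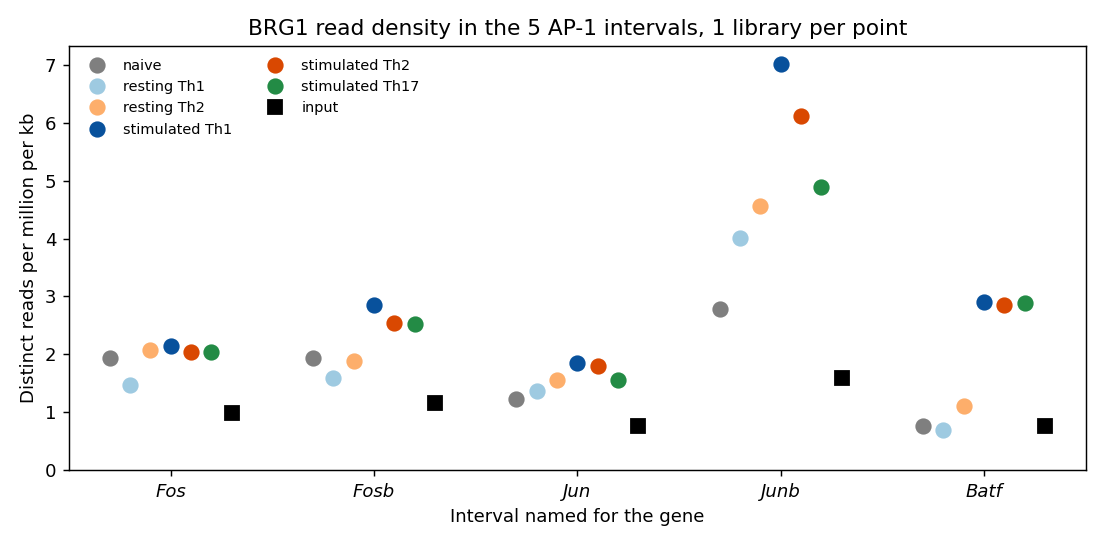
BRG1 read density (RPM per kb of interval) in the 5 AP-1 intervals, 1 round point per BRG1 library and a black square for the input, without error bars because each group has 1 library. Junb is highest in every BRG1 library, from 2.79 in naive to 7.01 in stimulated Th1, and Batf moves from 0.688 to 1.11 unstimulated to 2.86 to 2.91 stimulated. Junb is also highest in the input, at 1.59.

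Against the input, all intervals except Batf were enriched in every library with all distinct reads; at equal depth, 2 of 5 rather than 4 of 5 were so in resting Th1. The naive library lay 1.97-fold over input at Fos, 1.66-fold at Fosb, 1.63-fold at Jun and 1.75-fold at Junb. Its Batf ratio was 1.00 (0.735 to 1.35), and that of resting Th1 was 0.904 (0.646 to 1.25). Batf was thus not distinguishable from input in naive and resting Th1 cells at this depth. In resting Th2 it reached 1.46 (1.07 to 1.98), and in stimulated Th1, Th2 and Th17 it was 3.82 (3.13 to 4.70), 3.75 (3.08 to 4.61) and 3.79 (3.14 to 4.62). In all, 4 of 5 intervals lay over input in naive (7.89% of 40 kb bins did) and 4 in resting Th1 (8.75%). All 5 did so in resting Th2 (10.1%) and in the stimulated Th1 (14.2%), Th2 (14.5%) and Th17 (16.9%) libraries. Among bins with an enriched region those shares ran from 21.8% in naive to 62.9% in stimulated Th17.

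Batf showed the largest difference between stimulated and resting libraries of the 5 genes, in Th1 and in Th2. The interval held 34.3 RPM in naive, 31.0 in resting Th1 and 50.0 in resting Th2, and 131, 129 and 130.0 RPM in stimulated Th1, Th2 and Th17. No stimulated library overlapped an unstimulated one. Stimulated over resting Th1 was 4.23 (3.20 to 5.68), and after division by the median ratio of all enriched regions it was 2.82 (2.14 to 3.78). For Th2 the ratio was 2.57 (1.99 to 3.37), and 2.04 (1.58 to 2.68) after that division. Only 0.490% of the 40 kb bins with an enriched region had as high a ratio in Th1, and 2.43% in Th2.

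A region was counted as different between libraries where the ratio was at least 3-fold, its interval left out 1 and the pair held at least 10 reads. The regions were found in these same libraries, so a region found only where it is high had to differ, and its ratio is a description. The Batf reads of stimulated cells were concentrated in 3 neighbouring enriched regions on chromosome 12, here Batf regions 2, 3 and 4 by order along the interval, at 87044201 to 87045000, 87045601 to 87046000 and 87046401 to 87047200. None of the 3 was enriched in an unstimulated library, and region 3 was enriched in stimulated Th1 only. Batf region 4 held 4.34 RPM in naive, 3.87 in resting Th1 and 3.73 in resting Th2 cells, and 27.3, 19.5 and 16.0 in stimulated Th1, Th2 and Th17 cells, against 1.42 in the input. All 3 stimulated libraries lay far above the unstimulated ones, whose 9, 7 and 5 reads did not differ from the input beyond counting error (naive over input 3.07, 0.924 to 11.7). Its ratio was 7.05 (3.31 to 18.0) in Th1 and 5.22 (2.15 to 16.5) in Th2. Batf region 2 held 0.965, 1.11 and 0 RPM unstimulated, 23.5, 15.7 and 11.0 stimulated, and 3.11 in the input. Here the unstimulated values rested on 2, 2 and 0 reads and lay below the input, and the part of that shortfall in the ratio was not tested. The ratio of Batf region 2 was 21.2 (5.71 to 178) in Th1; in Th2 it was at least 7.02-fold higher with resting Th2 set to a floor of 3 counts per library, and the exact lower limit, which also allows for the error of the other count, was 5.56. Batf region 3 held 0.965, 0 and 1.49 RPM unstimulated and 7.66, 4.22 and 4.18 stimulated, with 0.849 in the input. In Th1 it was at least 4.62-fold higher (exact lower limit 3.53), and in Th2 the ratio was 2.83 (0.678 to 25.2), which counting error alone can give.

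Taken as 1 stretch of 3 kb, from 87044201 to 87047200, a choice made after its values were seen, Batf regions 2 to 4 held 8.21, 6.64 and 6.72 RPM in naive, resting Th1 and resting Th2 and 67.1, 48.1 and 41.8 RPM in stimulated Th1, Th2 and Th17. The input held 7.08 RPM there, as much as the unstimulated libraries. Stimulated over resting was 10.1 (5.69 to 19.8) in Th1 and 7.16 (3.70 to 15.9) in Th2. The stretch took 51.3%, 37.4% and 32.2% of all reads of the interval in stimulated Th1, Th2 and Th17, against 13.4% to 23.9% in the unstimulated libraries and 20.7% in the input. The rest of the Batf interval was also higher after stimulation, by 2.62 (1.90 to 3.70) in Th1 and 1.86 (1.40 to 2.50) in Th2. The ratio within the stretch describes regions found through their stimulated reads and is not set against the rest.

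Within the stretch the stimulated libraries shared their fullest window but not the order of the others. The fullest window of the interval was 87046601 to 87046800, in Batf region 4, with 54, 35 and 41 reads in stimulated Th1, Th2 and Th17, and it was also the fullest in naive (7 reads) and resting Th1 (5 reads). It held 4 reads in resting Th2 and 4 in the input. The window 87044401 to 87044600 in region 2 held 38, 21 and 24 reads in stimulated Th1, Th2 and Th17, and the window 87046001 to 87046200, between regions 3 and 4, held 12, 10 and 33. Between regions 2 and 3 the reads dropped: the window 87045201 to 87045400 held 1, 3 and 7 reads in stimulated Th1, Th2 and Th17. Reads came from both strands, with 54 plus and 38 minus in Batf region 2 and 51 plus and 56 minus in Batf region 4 in stimulated Th1.

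**Figure D2:**
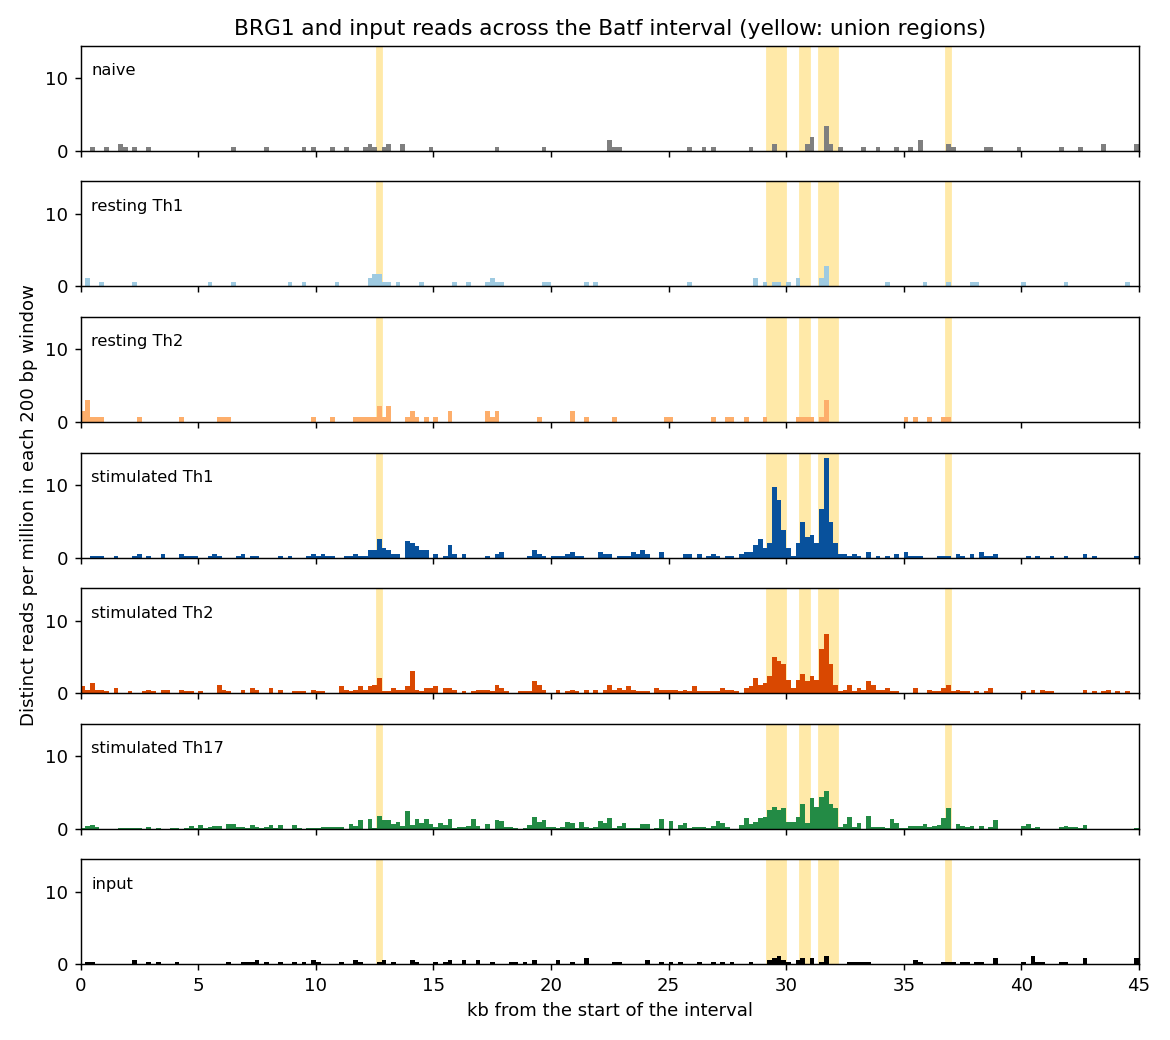
BRG1 reads (RPM per 200 bp window) across the Batf interval in the 7 libraries, by distance in kb from the interval's start, with enriched regions shaded. The shaded cluster of 3 regions right of the middle is high in the 3 stimulated libraries and near the input level in the unstimulated ones, where its 3 kb hold 41.8 to 67.1 and 6.64 to 8.21 RPM.

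The 2 outer Batf regions did not follow that pattern. Batf region 1, at 87027601 to 87027800, held 0, 1.66 and 2.24 RPM unstimulated and 2.55, 2.11 and 1.77 stimulated, so the groups overlapped, and it was not counted as different in either subset. Batf region 5, at 87051801 to 87052000, held 23 reads in stimulated Th17 and 1 in stimulated Th1, a ratio of 11.4 (1.85 to 470), with 5 in stimulated Th2, 1 to 2 unstimulated and 1 in the input. It was enriched in stimulated Th17 only, so that this ratio follows from how the region was found. When a random 50% of the reads served for calling and the remaining 50% for counting, 0 member regions were higher in stimulated Th17 than in stimulated Th1.

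Junb had the most enriched regions, 10 of the 27, and Junb region 9 held the most reads of them in every stimulated library. It spans 1400 bp, chromosome 8, 87508801 to 87510200, and held 12.1 RPM in naive, 13.3 in resting Th1 and 23.1 in resting Th2 cells, and 56.7, 50.4 and 28.5 in stimulated Th1, Th2 and Th17 cells, with 7.93 in the input. The 3 stimulated libraries lay above all unstimulated ones, the Th17 library close to resting Th2. Stimulated over resting was 4.27 (2.80 to 6.80) in Th1. In Th2 it was 2.18 (1.49 to 3.29), which leaves out 1 but stays under the 3-fold rule. The fullest window of the whole interval lay in this region in each stimulated library, at 87509601 to 87509800, with 61 reads in Th1, 53 in Th2 and 49 in Th17. In naive, resting Th1 and resting Th2 the fullest window lay elsewhere, in Junb regions 7, 1 and 8. The window 87509601 to 87509800 and that of Junb region 1 each held 11 input reads, the input's highest count here. Against the input in Junb region 9, naive was 1.52 (0.851 to 2.71) and resting Th1 was 1.67 (0.929 to 2.996). Both included 1. Resting Th2 was 2.92 (1.69 to 5.05), and stimulated Th1, Th2 and Th17 were 7.15, 6.36 and 3.60.

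**Figure D3:**
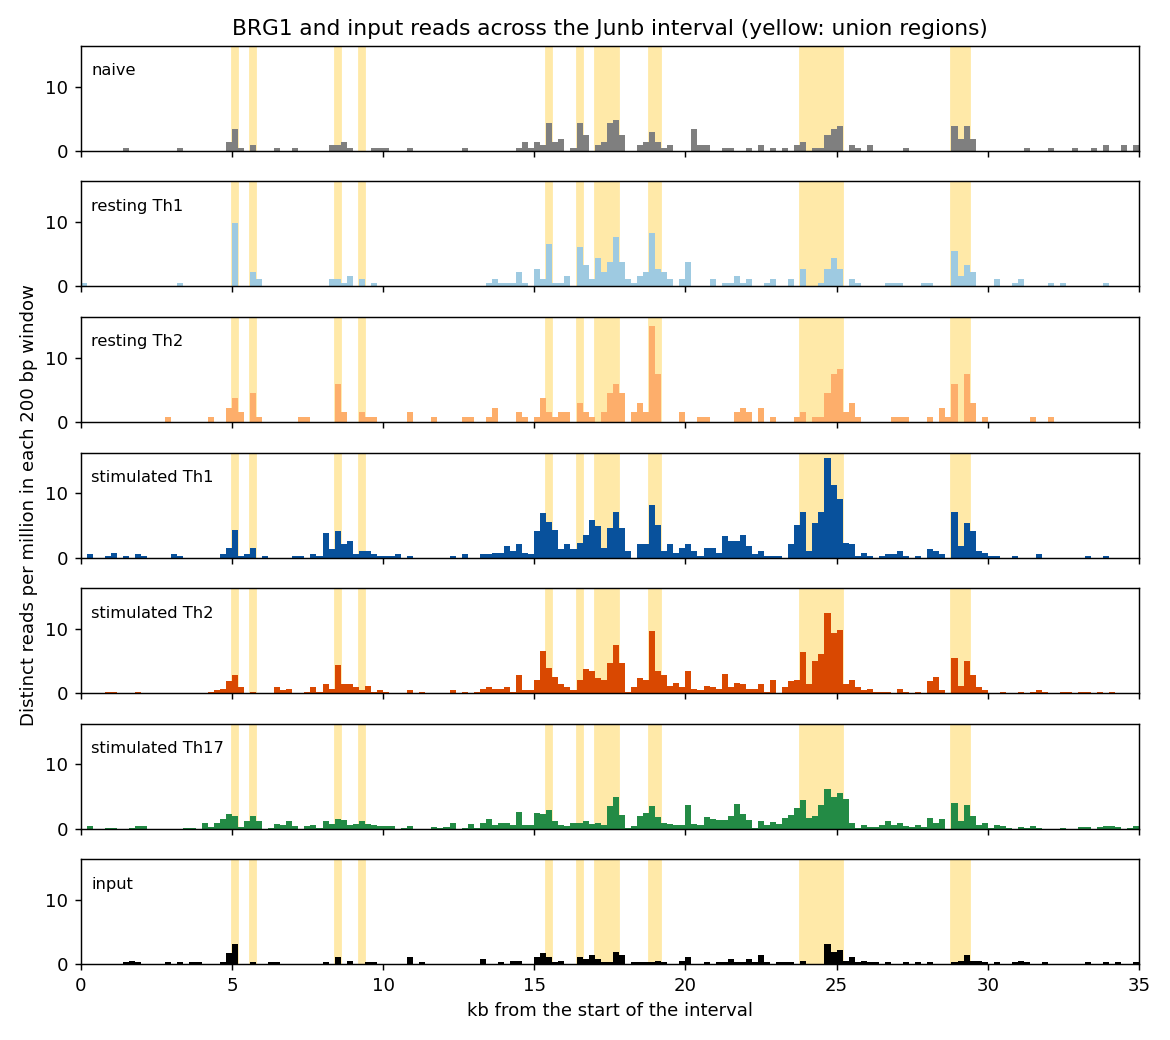
BRG1 reads (RPM per 200 bp window) across the Junb interval in the 7 libraries, by distance in kb from the interval's start, with the 10 enriched regions shaded. The broad shaded region right of centre, Junb region 9, holds 50.4 and 56.7 RPM in stimulated Th2 and Th1 and 12.1 to 23.1 RPM in the unstimulated libraries.

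The other prominent Junb regions differed less with stimulation. Junb region 7, at 87502001 to 87502800, held 11.6, 18.3 and 11.9 RPM unstimulated and 18.1, 16.7 and 10.0 stimulated, so the groups overlapped. Junb region 8, at 87503801 to 87504200, held 4.34 RPM in naive, 11.1 in resting Th1 and 22.4 in resting Th2 cells, and 13.3, 13.1 and 5.32 in stimulated Th1, Th2 and Th17, with 0.849 in the input. It was highest in resting Th2, and resting Th2 over naive was 5.15 (2.39 to 12.3). Junb region 10, at 87513801 to 87514400, held 9.65, 10.5 and 13.4 RPM unstimulated and 14.3, 11.5 and 8.87 stimulated, with 2.27 in the input. Its groups overlapped, and the ratios were 1.36 (0.796 to 2.42) in Th1 and 0.856 (0.490 to 1.56) in Th2. Junb region 3, at 87493401 to 87493600, held 8 reads in resting Th2 and 2 in each of naive and resting Th1. That gave 6.18 (1.23 to 59.8) for resting Th2 over naive, and resting Th1 was 5.40-fold lower than resting Th2 (1.08 to 52.2). Junb region 2, at 87490601 to 87490800, held 16 reads in stimulated Th17 against 1 read in the Th2 counterpart, and the ratio was 8.64 (1.34 to 362). These last 3 ratios rest on 10 to 17 reads each, and Junb region 3 was enriched in resting Th2 only. With calling and counting on separate 50% parts of the reads, 0 member regions were higher in resting Th2 than in naive, 0 were lower in resting Th1 than in resting Th2 and 0 were higher in stimulated Th17 than in stimulated Th2. On 50% of the reads, regions with so few fall near or under the minimum of 10 reads in the pair, so for them a 0 cannot decide. The 0 for resting Th2 over naive also covers Junb region 8, whose ratio rests on 30 and 9 reads. The remaining Junb regions (1, 4, 5 and 6) held 0 to 23 reads in any library.

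Over the whole Junb interval, reads were 97.5 RPM in naive, 140 in resting Th1 and 160 in resting Th2 cells, and 245, 214 and 171 in stimulated Th1, Th2 and Th17 cells. Each stimulated library lay above each unstimulated one. Stimulated over resting was 1.75 (1.52 to 2.01) in Th1 and 1.34 (1.15 to 1.56) in Th2. Division by the median ratio of all enriched regions left 1.16 (1.01 to 1.34) in Th1 and 1.07 (0.918 to 1.24) in Th2, and the latter included 1. Both undivided intervals lay above the medians of bins with an enriched region, 1.23 in Th1 and 1.12 in Th2. Of those bins, 19.7% and 31.0% reached the Junb ratios.

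Fosb encodes a Fos protein that, like c-Fos, binds DNA only as a dimer with a Jun protein. Its interval held 77.7 RPM in naive, 63.6 in resting Th1 and 75.4 in resting Th2 cells, and 114, 102 and 101 in stimulated Th1, Th2 and Th17 cells. The groups did not overlap. Stimulated over resting was 1.80 (1.46 to 2.23) in Th1 and 1.35 (1.08 to 1.69) in Th2, which division by the region median reduced to 1.20 (0.975 to 1.48) and 1.07 (0.861 to 1.34). Bins with an enriched region had a Th1 median of 1.23, below the undivided Fosb interval, and a Th2 median of 1.12, inside it. Its most occupied region, Fosb region 5 on chromosome 7, 19905401 to 19905600, was the single one of the 27 enriched in all 6 BRG1 libraries. It held 7.72, 13.8 and 20.1 RPM unstimulated and 17.4, 20.9 and 11.7 stimulated, with 5.95 in the input. Its single window was also the fullest of the input in this interval, with 21 reads. Against the input in the region itself, naive was 1.30 (0.634 to 2.61), so naive was not above it beyond counting error. Calling used the input averaged over longer stretches. The groups overlapped, and the ratios of 1.26 (0.783 to 2.07) in Th1 and 1.04 (0.667 to 1.66) in Th2 included 1. Fosb region 3, at 19892801 to 19893000, held 0 reads in all 3 unstimulated libraries, 19, 12 and 19 in stimulated Th1, Th2 and Th17, and 1 in the input. Of all 27 regions it was the single one empty in every unstimulated library; in Th1 it was at least 2.92-fold higher after stimulation (exact lower limit 2.15), and it was enriched in stimulated Th1 only. Fosb region 4, at 19894001 to 19894200, held 11.6, 6.08 and 11.9 RPM unstimulated and 11.0, 9.15 and 5.57 stimulated, with 5.10 in the input, and its groups overlapped. Fosb regions 1 and 2, at 19881201 to 19881400 and 19889201 to 19889400, held 1.93 to 5.22 RPM unstimulated and 2.03 to 4.93 stimulated. The groups overlapped in both, with Th2 ratios of 0.764 (0.301 to 2.18) and 0.943 (0.386 to 2.63).

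Fos encodes c-Fos, the main partner of c-Jun in newly stimulated T cells. The interval held 97.0 RPM in naive, 73.6 in resting Th1 and 104 in resting Th2 cells, and 107, 102 and 102 in stimulated Th1, Th2 and Th17 cells. Resting Th1 stood below the other 5 libraries, which lay within 97.0 to 107. Stimulated over resting was 1.46 (1.20 to 1.78) in Th1. After division by the median ratio of enriched regions it was 0.972 (0.798 to 1.19), which included 1. That divisor, 1.50, is a median of short regions, and bins with an enriched region had a median of 1.23. In Th2 the undivided ratio was 0.986 (0.813 to 1.20), so a difference of more than 1.20-fold upwards lies outside the counting interval. Fos region 1, on chromosome 12, 86796201 to 86796600, was its most occupied region, with 12.5, 10.5 and 20.1 RPM unstimulated, 17.6, 16.0 and 11.1 stimulated and 3.40 in the input. Every library lay over the input there beyond counting error, though the region was found in these same libraries. It was not called enriched in resting Th1, at 3.09 over input (1.43 to 6.99). The groups overlapped, with 1.68 (0.997 to 2.95) in Th1 and 0.792 (0.500 to 1.29) in Th2. The minor Fos regions 3 and 4, at 86815401 to 86815600 and 86827801 to 86828000, held 0 reads in resting Th1 and 12 and 18 in stimulated Th1. They were at least 1.85-fold and 2.77-fold higher (exact lower limits 1.28 and 2.03). Naive cells held 4.34 RPM at Fos region 3, above all stimulated libraries (1.14 to 3.06), and resting Th2 held 5.22 RPM at Fos region 4, above all stimulated libraries there (2.53 to 4.59). Fos region 2, at 86813201 to 86813400, held 4.83, 5.53 and 4.48 RPM unstimulated and 3.57, 5.63 and 3.42 stimulated. The groups overlapped, with 0.646 (0.267 to 1.63) in Th1 and 1.26 (0.501 to 3.76) in Th2.

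Jun encodes c-Jun, the founding member of the family. Its interval held 61.8 RPM in naive, 68.0 in resting Th1 and 77.6 in resting Th2 cells, and 92.4, 90.3 and 78.2 in stimulated Th1, Th2 and Th17 cells. The groups stood apart by less than 1 RPM between resting Th2 and stimulated Th17. Stimulated over resting was 1.36 (1.10 to 1.68) in Th1 and 1.16 (0.935 to 1.46) in Th2. Division by the region median left the Th1 ratio at 0.906 (0.736 to 1.12), which included 1. Bins with an enriched region had a Th1 median of 1.23, inside the undivided interval for Jun. Its most occupied region was Jun region 2, chromosome 4, 94718801 to 94719600, with 17.9, 19.9 and 29.8 RPM unstimulated, 27.3, 23.7 and 13.8 stimulated and 2.83 in the input. The highest value was that of resting Th2 and the lowest that of stimulated Th17. The fullest window of the interval was the same in all 6 BRG1 libraries, 94719001 to 94719200. Stimulation gave 1.37 (0.932 to 2.06) in Th1 and 0.794 (0.545 to 1.18) in Th2, so both intervals included 1. Jun region 1, at 94716601 to 94716800, held 1.45, 1.11 and 2.24 RPM unstimulated and 2.04, 2.35 and 2.53 stimulated. Jun region 3, at 94719801 to 94720000, held 5.31, 2.21 and 1.49 RPM unstimulated and 3.32, 3.05 and 1.77 stimulated. The groups overlapped in both, and at Jun region 3 naive was the highest library.

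Set side by side, the 5 intervals divide by how far stimulated and resting Th1 differed relative to bins with an enriched region, whose median ratio was 1.23. All 5 were higher in stimulated Th1 and 0 lower; of all 40 kb bins 10.9% were higher and 24.5% lower, and higher were 38.6% of the bins with an enriched region. The share of bins with an enriched region that reached the member's ratio was 0.490% for Batf, 17.8% for Fosb, 19.7% for Junb, 33.6% for Fos and 40.2% for Jun. In Th2, 3 intervals (Fosb, Junb and Batf) were higher and 0 lower; of all bins 7.73% were higher and 10.4% lower, and higher were 25.3% of those with an enriched region. After division by the median ratio of enriched regions, 2 intervals stayed higher in Th1 (Junb and Batf). In Th2, 1 stayed higher (Batf) and 1 turned lower, Fos at 0.784 (0.646 to 0.956). Those divisors, 1.50 and 1.26, are medians of short regions. The Th2 median of bins with an enriched region, 1.12, lay inside the undivided Fos interval of 0.813 to 1.20. It also lay inside those of Fosb (1.08 to 1.69) and Jun (0.935 to 1.46), and below those of Junb (1.15 to 1.56) and Batf (1.99 to 3.37). The Th1 median of such bins, 1.23, lay below the undivided intervals of Fosb (1.46 to 2.23), Junb (1.52 to 2.01) and Batf (3.20 to 5.68). It lay inside those of Fos (1.20 to 1.78) and Jun (1.10 to 1.68). The size of the Th1 and the Th2 difference was not compared by a test, since each rests on 1 library a state.

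**Figure D4:**
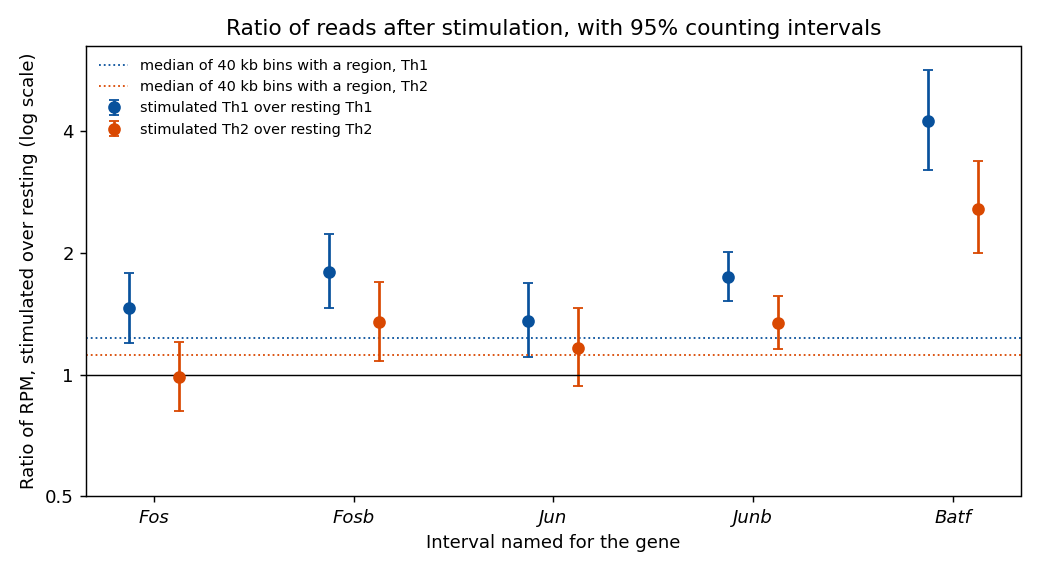
Ratio of RPM, stimulated over resting, for each interval in Th1 and in Th2 on a log axis, with 95% counting intervals and dotted lines at the medians of 40 kb bins with an enriched region. Batf lies apart at 4.23 in Th1 and 2.57 in Th2, while Fos and Jun lie near the medians. Fos and Jun turn to 0.972 and 0.906 in Th1 when divided by the median ratio of enriched regions, 1.50, which lies above the dotted Th1 line at 1.23.

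Region by region, counts of differences describe the loci and are read only against all other regions found in the same way. In Th1, 7 of 25 tested member regions (28%) were higher after stimulation and 0 lower, against 24.2% higher and 4.65% lower of all tested regions. The 7 were Batf regions 2, 3 and 4, Junb region 9, Fosb region 3 and Fos regions 3 and 4. For the last 3 the bound against the floor lies under 3-fold. They were counted because the rule used the ratio without the floor, and with the floor they would not be. In Th2, 2 of 23 (8.70%) were higher, Batf regions 2 and 4, and 0 lower, against 14.1% and 5.04%. The member shares thus lay near or below the shares of all regions, and the medians did too: 1.50 against 1.50 in Th1 and 0.943 against 1.26 in Th2. With all repeated reads kept, the Th2 counts became 8 higher and 3 lower, and at equal depth the Th1 count became 4 higher. Restricted to regions in which neither library fell under 0.5 times the RPM of the input, a choice made after the values were seen, 3 were higher in Th1 and 1 in Th2. For these alternative settings the numbers tested and the shares of all regions are not given here. Their counts are therefore not set against the shares above. Of the 23 regions tested in both, 2 were higher in both (11.5% of all regions). In 5 of 27 regions all 3 stimulated libraries lay above all 3 unstimulated ones, namely Fosb region 3, Junb region 9 and Batf regions 2, 3 and 4, against 25.7% of all regions. In 1, Junb region 6, they lay below, against 5.2%.

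**Figure D5:**
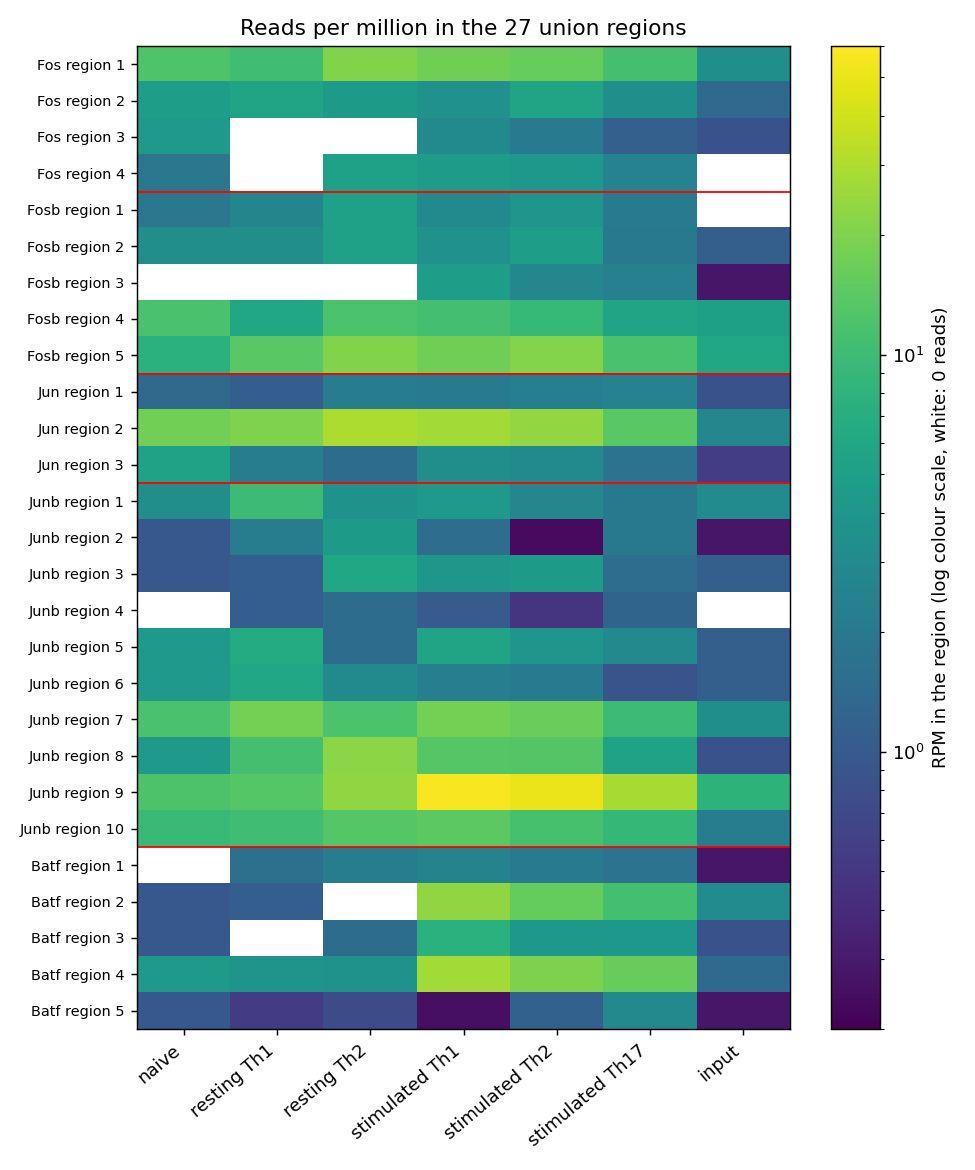
RPM of the 27 enriched regions (rows, by gene and position) in the 7 libraries (columns) on a logarithmic colour scale from dark blue (low) to yellow (high), with white for 0 reads and red lines between genes. Batf regions 2 to 4 and Junb region 9 turn from blue or green towards yellow in the stimulated columns, Fosb region 3 is white in all 3 unstimulated columns, and Jun region 2, Fos region 1 and Fosb region 5 are filled throughout.

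Between naive and resting differentiated cells, 4 of the 10 interval ratios left out 1, and 2 regions were counted as different. Of 15 member regions tested for resting Th1 over naive, 0 were higher and 0 lower, against 15.8% and 0.825% of all regions; no p-value exists for this count, and it became 4 higher and 2 lower with all repeated reads kept. For resting Th2 over naive, 2 of 18 were higher, Junb regions 3 and 8, and 0 lower (20.4% and 1.02%). These became 5 and 2 with all repeated reads kept. The shares of all regions with repeated reads kept are not given here, so the counts in that setting have no background. The member medians were 1.11 and 1.47, against 1.59 and 1.69 over all tested regions. Among the intervals, Junb was higher than in naive in resting Th1, at 1.44 (1.19 to 1.74), and in resting Th2, at 1.64 (1.34 to 1.99). Division by the region median turned these to 0.908 and 0.971, while bins with an enriched region had smaller medians than the regions, 1.15 and 1.24. Batf was higher in resting Th2, at 1.46 (1.03 to 2.07), which turned to 0.865, and Fos was lower in resting Th1, at 0.758 (0.604 to 0.949). Of all 40 kb bins, 5.66% were higher and 5.35% lower for resting Th1, and 8.43% higher and 10.8% lower for resting Th2. Of the bins with an enriched region, 20.9% were higher for resting Th1 and 31.5% for resting Th2, and 22.2% and 23.9% reached the Junb ratios.

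Between resting Th1 and resting Th2, Fos and Batf were lower in Th1. The ratio was 0.709 (0.555 to 0.906) for Fos and 0.620 (0.427 to 0.897) for Batf, in a comparison where 4.71% of all bins and 15.3% of those with an enriched region were lower. The Batf difference rests on 56 reads in resting Th1 and 67 in resting Th2. For Fosb, Jun and Junb the 95% intervals included 1, and 0 of the 5 loci were higher in Th1, against 4.94% of bins. Of 17 regions tested, 1 (Junb region 3) was lower in Th1 and 0 higher, against 4.97% and 2.12% of all regions. After stimulation, Th1 and Th2 were close at all 5 loci. Junb was higher in Th1, at 1.15 (1.04 to 1.26), where 6.17% of bins were higher and 7.51% lower. Of the bins with an enriched region 17.5% were higher, and 31.0% reached the Junb ratio. Batf was 1.02 (0.901 to 1.15), Jun 1.02, Fos 1.05 and Fosb 1.13, each with an interval that included 1. Within the Batf interval the 3 kb stretch held more in Th1, at 1.40 (1.16 to 1.68), and the rest of the interval held less, at 0.793 (0.671 to 0.936). The stretch was chosen after its values were seen, and its region 3 was found in stimulated Th1 only, which favours Th1. These values are therefore descriptions and are not set against each other. Of 24 member regions tested between them, 0 were higher and 0 lower, against 2.53% and 3.6% of all regions, and the member median was 1.11 against 1.09.

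Over the Batf interval, stimulated Th17 did not differ from stimulated Th1 or Th2 beyond counting error. The interval ratio was 0.993 (0.892 to 1.11) to stimulated Th1 and 1.01 to stimulated Th2. The 3 kb stretch was lower in Th17 than in Th1, at 0.623 (0.528 to 0.735), and the rest of the interval was higher, at 1.38 (1.19 to 1.60). As the choice of the stretch favours Th1, these values too are descriptions only. Against Th2 the values were 0.869 (0.728 to 1.04) and 1.10 (0.961 to 1.25), both including 1. Over all enriched regions of the genome the Th17 library was lower, with medians of 0.579 to Th1 and 0.623 to Th2, and the members had 0.551 and 0.609. It was the lowest of the 3 stimulated libraries in 23 of 27 member regions and in 66.4% of all regions. Among the intervals, Fosb (0.884, 0.786 to 0.995), Jun (0.846, 0.742 to 0.966) and Junb (0.699, 0.643 to 0.760) were lower in Th17 than in Th1, where 19% of bins were lower and 14.5% higher. Of the bins with an enriched region 27.4% were lower and 23.8% higher, and 63.2%, 68.8% and 86.3% reached the Fosb, Jun and Junb ratios. Division by the region median turned the Fosb, Jun and Junb ratios to 1.53, 1.46 and 1.21. The median of bins with an enriched region was 0.981 for Th17 over Th1 and 1.01 for Th17 over Th2, far above the region medians. Against Th2, Jun (0.865, 0.761 to 0.985) and Junb (0.800, 0.735 to 0.871) were lower, where 23% of bins were lower and 16.3% higher, and the division turned them to 1.39 and 1.28. Among bins with an enriched region 27% were lower and 27.4% higher, and 67.2% and 74.4% reached the Jun and Junb ratios. Of the 27 regions, 1 was higher in Th17 than in Th1 (Batf region 5) and 1 higher than in Th2 (Junb region 2), against 3.37% and 3.32%; 0 were lower in either, against 16.6% and 17.1%. Junb region 9, at 0.503 (0.416 to 0.608), and Jun region 2, at 0.506 (0.384 to 0.666), were lower in Th17 than in Th1 by less than the 3-fold rule.

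The regions were short and mostly found in few libraries. Of the 27, 18 were 1 window long, 14 were enriched in 1 library only, and 1 was enriched in all 6. At equal depth, 7, 7 and 11 of them were called in naive, resting Th1 and resting Th2 cells and 14, 13 and 7 in stimulated Th1, Th2 and Th17 cells, beside 3062, 6962, 8546, 11648, 10881 and 6060 regions called over the genome. Where each region lies relative to the start and exons of its gene is not stated, as no gene annotation of build mm9 was used here. In RefSeq gene order on GRCm38.p6, the nearest protein-coding neighbours are Tmed10 and Jdp2 for Fos, Jdp2 and Flvcr2 for Batf, Rtn2 and Ercc1 for Fosb, Mysm1 and Fggy for Jun, and Prdx2 and Hook2 for Junb. Reads in an interval may therefore belong to a neighbour's regulatory elements, and Jdp2, which lies between Fos and Batf, itself encodes a repressor that dimerizes with Jun proteins.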

How the data were processed

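BRG1 ChIP-seq reads of 6 mouse CD4+ T cell libraries and 1 input library were used. The authors deposited lists of aligned reads (other: positions and strand, with no count or signal), on build mm9 per the submitters' processing notes. Neither the aligner nor its filters are named in the sources used here. Chromatin was cut with micrococcal nuclease and sonicated, and libraries had 18 PCR cycles and a size selection of 250 to 300 bases, per the labels' protocols.

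Repeated reads at a start and strand were reduced to 1, reads on chromosome Y were dropped and 5′ ends were shifted 75 bp. Windows of 200 bp passed at a Poisson tail of 1e-05 over a local background, taken as the higher of the genome-wide mean and the input's scaled density within 1, 5 or 10 kb, with every BRG1 library thinned to 1340208 reads. Passing windows were joined over gaps of 1 window, and the union of the 6 sets was counted with all distinct reads. Ratios of RPM were formed for 8 pairs, genome-wide, with conditional exact 95% intervals. For the printed "at least" values only, a library with 0 reads was set to a floor of 3 counts. The 3-fold rule used the ratio without the floor, which has no upper limit at 0 reads. Intervals were compared with all bins of 40 kb holding at least 10 reads in the pair. Regions named are the up to 4 with most RPM in each interval and up to 2 further ones counted as different, 23 of 27. The members, lists and rules were chosen with earlier results of these data known. Alternatives were repeated reads, the shift, 2 other scalings, equal depth, the fold, the read minimum, the tail and calling on a random 50% of each library's reads with counting on the other 50%. The calling and ratio steps were tested on simulated data. Python 3.11.15, NumPy 2.4.6, SciPy 1.17.1, pandas 2.3.3 and matplotlib 3.10.9 were used. RefSeq promoters (GRCm38.p6) matched all 5 members.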

Additional observations from a re-analysis of the deposited data

How the results depend on the processing

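No paired analysis was possible because each group has 1 library, and for the same reason no replicate could be left out. Over 282 values and counts of the comparisons under the alternatives and as reported, 192 kept within the stated tolerance and 90 moved; of 360 values of single intervals and regions, 323 kept, 27 moved and 10 reversed. Every reversal came from dividing by the median ratio of all enriched regions: 0.908 (Junb) for resting Th1 over naive, 0.971 (Junb) and 0.865 (Batf) for resting Th2 over naive, 0.972 (Fos) and 0.906 (Jun) for stimulated over resting Th1, 1.53 (Fosb), 1.46 (Jun) and 1.21 (Junb) for stimulated Th17 over Th1, and 1.39 (Jun) and 1.28 (Junb) for Th17 over Th2; the division itself moves every ratio of a pair by the same factor. With that division the intervals counted were, for resting Th1 over naive, 0 higher and 4 lower; for resting Th2 over naive, 0 and 3; for resting Th1 over resting Th2, 1 lower; for activation in Th1, 2 higher; for activation in Th2, 1 higher and 1 lower; for stimulated Th1 over Th2, 0 higher; and for Th17, 5 higher and 0 lower against either. That divisor is a median of short regions and not of stretches as long as the intervals. A reversal here means only that the ratio crossed 1, and the divided Th1 intervals of Fos and Jun included 1. Scaling by bins without regions gave 0 lower for resting Th1 over naive and 2 higher for stimulated Th1 over Th2. All reads gave 4 lower for resting Th1 over resting Th2. Equal depth gave 1 lower for Th17 against Th1 and 1 against Th2, and 2 of 5 over input in resting Th1.

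Member regions counted, higher and lower, moved as follows, and the cause was not tested. The numbers tested and the shares of all regions under each setting are not given, so these counts have no background here. With all repeated reads kept they were 4 and 2 for resting Th1 over naive, 5 and 2 for resting Th2 over naive, 3 higher for resting Th1 over resting Th2, 8 and 3 for activation in Th2, 1 and 1 for stimulated Th1 over Th2, and 4 and 3 for Th17 against Th1 and again against Th2. Without the shift they were 1 lower for resting Th1 over naive, 1 and 1 for resting Th2 over naive, 1 lower for activation in Th1, 5 higher for activation in Th2, 1 lower for stimulated Th1 over Th2, 0 and 4 for Th17 over Th1 and 0 higher for Th17 over Th2. Dividing by the region median gave 2 lower for resting Th1 over naive, 1 and 2 for resting Th2 over naive, 1 and 0 for resting Th1 over resting Th2, 2 lower for activation in Th1 and 2 higher for Th17 over Th2. Scaling by bins without regions gave 1 higher for resting Th1 over naive and 1 lower for Th17 over Th2. Equal depth gave 1 higher for resting Th2 over naive, 1 higher for resting Th1 over resting Th2, 4 higher for activation in Th1, 1 higher for stimulated Th1 over Th2, 0 and 2 for Th17 over Th1 and 0 higher for Th17 over Th2. At 2-fold there were 2 higher for resting Th1 over naive, 2 lower for resting Th1 over resting Th2, 1 lower for activation in Th1, 6 lower for Th17 over Th1 and 3 lower for Th17 over Th2. A minimum of 20 reads gave 1 higher for resting Th2 over naive, 0 lower for resting Th1 over resting Th2, 4 higher for activation in Th1 and 0 higher for Th17 over Th2. No minimum gave 1 lower for each resting library over naive and for activation in Th2, and 2 lower for resting Th1 over resting Th2. Calling on 50% of the reads and counting on the other 50% gave 0 higher for resting Th2 over naive, 0 lower for resting Th1 over resting Th2, 1 higher for activation in Th2, 0 and 2 for Th17 over Th1 and 0 higher for Th17 over Th2. Regions with few reads can fall under the read minimum in that setting. An alternative chosen after seeing the data, only regions where both libraries hold at least 0.5 times the input RPM, gave 3 higher for activation in Th1 and 1 in Th2.

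Regions called were, with all repeated reads, 12 in naive, 15 and 18 in Th1 and Th2 at rest, and 26, 25 and 21 in stimulated Th1, Th2 and Th17. Without thinning they were 13 in naive and 32, 33 and 45 in stimulated Th1, Th2 and Th17, and at a tail of 1e-07 they were 4 in resting Th1 and 4 in Th17. Depth limits the unstimulated libraries most: 1 read is 0.746 RPM in resting Th2 and 0.127 in stimulated Th17, so a region at 0 reads may hold up to 2.24 RPM in the former (3 reads, counting error only).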
